A study of Mus musculus with 16 samples.

Results

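Open chromatin was mapped by ATAC-seq across the mouse *Gata3* gene and the long, gene-poor desert on its 3' side. The stretch examined was chr2:9500000-9950000 of GRCm38 (mm10), and the interval of the distal enhancer TCE1, 9593000 to 9597000, was left out. Members were the peaks of each stage that overlapped this stretch by at least 1 bp. They numbered 253 of the 476734 peaks in the 4 lists, and peaks that overlapped each other merged into 99 regions of 185978 in the genome. No measured height entered this choice.

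Thymocytes came from wild type C57BL/6J mice, 9 weeks old, with no treatment named. Flow cytometry separated CD4-CD8- double negative cells (DN), CD4+CD8+ double positive cells (DP), and CD4 and CD8 single positive cells (SP4 and SP8). Each stage was taken from 4 mice, which gave 16 libraries. The authors brought the libraries to similar depth, pooled the 4 mice of a stage and called peaks once, so each stage has 1 list, in which the mice can no longer be told apart, and no test between stages was made from these lists. Each difference given here is therefore a description, and its interval covers counting error only. A pooled list also cannot tell fewer cells with an open site from a weaker opening in each cell.

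GATA3 is a zinc finger transcription factor that binds GATA sequences and is needed at several steps of T cell life. It supports early T lineage progenitors, takes part in the passage through β selection, and directs positively selected cells towards the CD4 lineage together with ThPOK, the product of *Zbtb7b*. *Gata3* is transcribed from several starts, and distal enhancers such as TCE1 lie far downstream of it. In ATAC-seq the Tn5 transposase cuts accessible DNA, so sites where nucleosomes are displaced collect read ends and appear as peaks.

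*Gata3* is on the minus strand and spans 9857078 to 9890034. Its main start is at 9878600. Distances below are counted from that start, downstream as positive values and upstream as negative ones, and TCE1 begins 281.6 kb and ends 285.6 kb downstream. The desert holds a processed pseudogene (*Gm13220*), a lincRNA (*Gm13218*) and an unclassified transcript (*Gm37866*). Beyond the 5' end lie *Gm13262* and the 3' part of *Taf3*, which encodes a TFIID subunit. *Gm13256*, *4930412O13Rik* and *9230102O04Rik* overlap *Gata3* itself.

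The sequences below are GRCm38 reference sequence at sites on which the stage differences turn. Each desert or gene window is 200 bp on the plus strand, around the summit of the region's top peak. The top peak is the one that ranked highest by q-value within the list of its own stage. Capitals mark matches to the 9 motifs searched on both strands. The letters were AGATAA for the GATA motif, CAGGTG or else CAGCTG for the E-box, TGTGGT for RUNX, CTTTGAT for TCF7/LEF1, AGGAAG for ETS, TGANTCA for AP-1, GGGCGG for SP/KLF and GTGGGAA for RBPJ, and the CTCF motif was a longer consensus. The CTCF consensus can hold the E-box letters CAGGTG, but otherwise no motif's letters contain those of another. A match is a description and was not taken as a bound site.

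The *Gata3* promoter is shown because a peak of nearly equal height lay over its start at every stage (RefSeq, GRCm38.p6, minus strand, chr2:9878601-9878850).
Gata3 promoter: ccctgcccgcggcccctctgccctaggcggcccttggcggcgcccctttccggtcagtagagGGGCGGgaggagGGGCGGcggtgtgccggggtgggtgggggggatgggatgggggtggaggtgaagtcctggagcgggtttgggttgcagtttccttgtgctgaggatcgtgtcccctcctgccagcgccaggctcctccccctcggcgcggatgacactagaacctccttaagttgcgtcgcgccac
The windows that follow belong to desert regions that stood highest at DN, at chr2:9564750-9564949, chr2:9796123-9796322 and chr2:9801667-9801866.
313.8 kb downstream: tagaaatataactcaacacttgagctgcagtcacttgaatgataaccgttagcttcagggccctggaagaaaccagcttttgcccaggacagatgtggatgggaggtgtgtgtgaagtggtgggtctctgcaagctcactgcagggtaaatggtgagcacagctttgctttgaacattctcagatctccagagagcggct
82.4 kb downstream: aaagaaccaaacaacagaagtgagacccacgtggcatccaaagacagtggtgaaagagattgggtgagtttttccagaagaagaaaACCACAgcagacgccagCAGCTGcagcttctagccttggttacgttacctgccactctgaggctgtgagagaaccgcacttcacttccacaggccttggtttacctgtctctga
76.8 kb downstream: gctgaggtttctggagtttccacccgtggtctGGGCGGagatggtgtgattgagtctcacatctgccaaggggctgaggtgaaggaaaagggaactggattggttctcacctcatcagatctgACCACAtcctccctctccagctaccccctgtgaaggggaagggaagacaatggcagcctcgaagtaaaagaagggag
The next windows are from desert regions that stood higher at SP4 and SP8 than at DN and DP. The smallest excess among them was that of SP8 over DN at the first. They lie at chr2:9520207-9520406, chr2:9691602-9691801 and chr2:9693937-9694136.
358.3 kb downstream: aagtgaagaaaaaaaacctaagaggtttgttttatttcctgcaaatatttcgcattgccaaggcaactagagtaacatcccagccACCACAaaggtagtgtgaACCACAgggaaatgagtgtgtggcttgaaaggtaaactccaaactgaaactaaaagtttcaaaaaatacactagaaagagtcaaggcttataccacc
186.9 kb downstream: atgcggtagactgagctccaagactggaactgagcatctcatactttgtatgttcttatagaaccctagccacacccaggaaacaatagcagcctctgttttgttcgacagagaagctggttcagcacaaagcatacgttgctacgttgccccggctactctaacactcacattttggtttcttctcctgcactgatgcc
184.6 kb downstream: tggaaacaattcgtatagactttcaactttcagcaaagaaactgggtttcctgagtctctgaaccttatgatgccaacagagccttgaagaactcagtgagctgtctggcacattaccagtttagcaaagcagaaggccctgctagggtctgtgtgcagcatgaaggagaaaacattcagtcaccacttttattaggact
Then come an intron of *Gata3* that rose most at SP4 and the region beside the promoter, at chr2:9867590-9867789 and chr2:9879546-9879745.
10.9 kb downstream: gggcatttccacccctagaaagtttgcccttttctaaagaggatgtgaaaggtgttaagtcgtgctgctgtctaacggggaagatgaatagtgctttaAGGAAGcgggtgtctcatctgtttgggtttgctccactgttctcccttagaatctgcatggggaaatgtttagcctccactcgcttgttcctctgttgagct
1.0 kb upstream: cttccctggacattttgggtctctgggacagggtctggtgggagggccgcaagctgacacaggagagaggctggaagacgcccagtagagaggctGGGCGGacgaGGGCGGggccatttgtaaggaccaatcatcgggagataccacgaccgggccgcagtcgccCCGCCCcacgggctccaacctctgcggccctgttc
The last is a site in *Taf3* that stood out at SP4, at chr2:9926208-9926407.
47.7 kb upstream: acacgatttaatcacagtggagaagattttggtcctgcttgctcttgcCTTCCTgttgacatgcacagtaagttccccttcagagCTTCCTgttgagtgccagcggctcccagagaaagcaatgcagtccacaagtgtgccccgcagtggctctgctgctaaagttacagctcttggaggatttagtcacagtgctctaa
None of the 9 motifs matched in the windows 313.8, 186.9 and 184.6 kb downstream, so these are all in lower case. The promoter held 2 SP/KLF matches, and 32.7% of 32851 promoters of the same length held any such match. The *Gata3* promoter was 70% G and C.

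Heights are given as read ends over a peak's summit, so each stage is read at its own summit within a region. The caller writes a fold enrichment and a p-value for each peak, and together these return a whole number of read ends and the local background. Dividing by the genome-wide background of the list, which was 3.509, 3.275, 3.219 and 3.582 read ends for DN, DP, SP4 and SP8, gives the summit level, in multiples of the genome average. All 253 peaks gave whole read ends.

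The window held 68 (DN), 54 (DP), 68 (SP4) and 63 (SP8) peaks. These peaks covered 3.86%, 2.91%, 3.93% and 4.01% of the window, while the lists covered 1.81%, 1.36%, 1.46% and 1.40% of the autosomes. Their median summits of 41.5, 36, 45.5 and 43 read ends were close to the medians of the whole lists, 42, 41, 42 and 50. The locus was thus dense in peaks of ordinary height, with a small number of high ones. Among 5328 autosomal windows of the same length, 93.0% held fewer regions, and among the 3555 with at most 4 coding genes, 97.2% did.

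**Figure D1:**
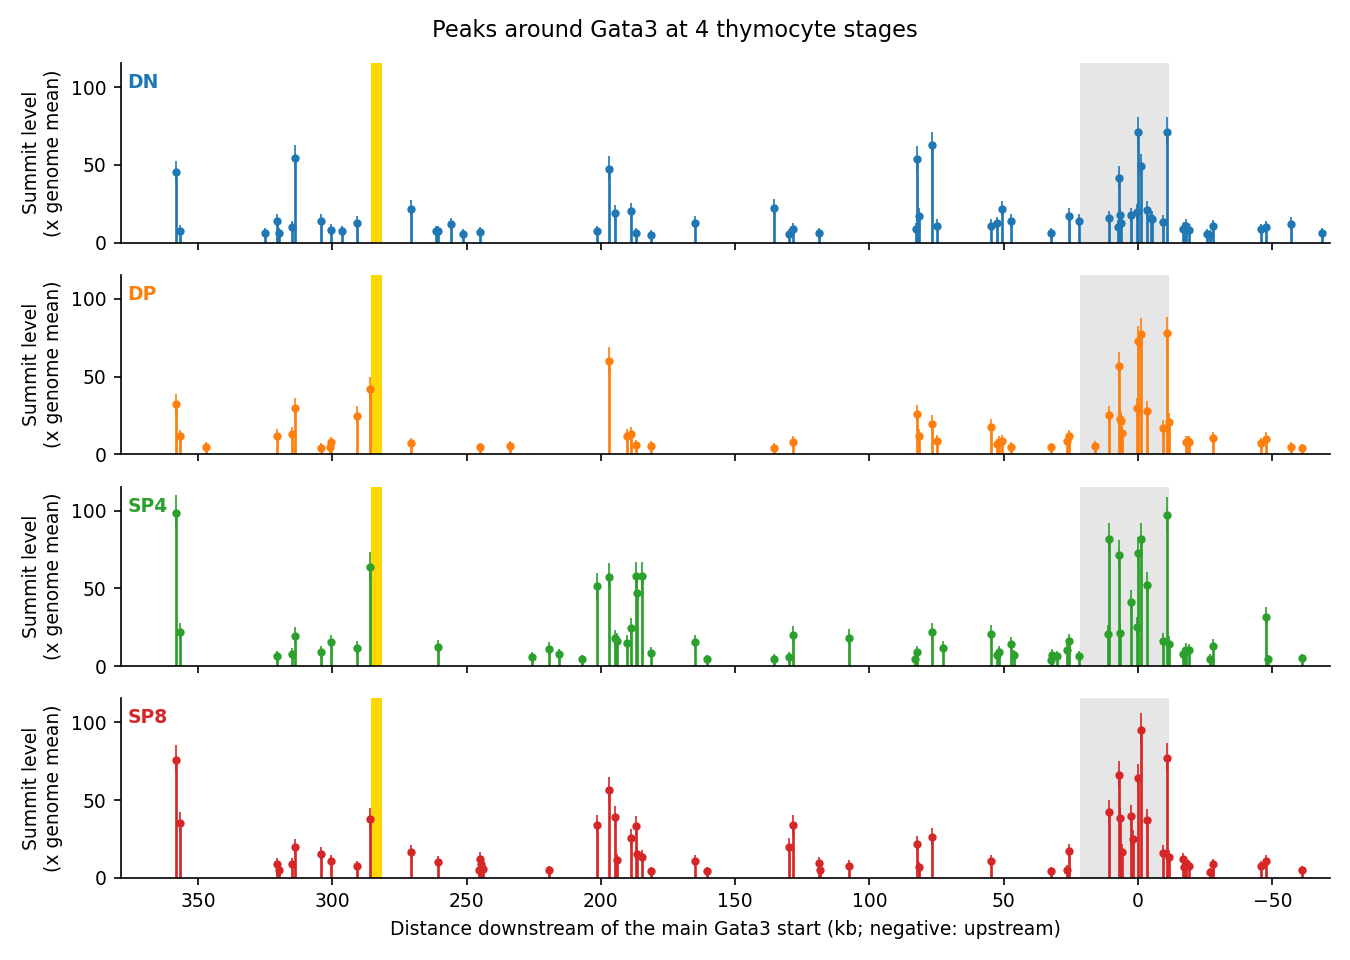
Summit level of each peak around *Gata3* (multiples of the genome average, with 95% Poisson intervals) against distance from the main start in kb, 1 panel per stage. Grey marks the *Gata3* gene and yellow the TCE1 interval, whose peaks are left out. Between 201.3 and 184.6 kb downstream, SP4 and SP8 were far above DN and DP at 201.3 and 186.9 kb, all stages were high at 196.8 kb, and DN, SP4 and SP8 were close at 188.9 kb, whereas DN was highest at 82.4 and 76.8 kb.

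Of the 99 regions, 65 (65.7%) carried a peak at DN, where 75.7% of all regions did. At DP 54 (54.5%) were called, against 53.9% of all regions. At SP4 66 (66.7%) were called, against 58.3%, and at SP8 62 (62.6%), against 53%. The share at DN was thus below the background and the shares at SP4 and SP8 were above it. The same was true of the windows at other T cell genes given below. At all 4 stages 30 regions (30.3%) were called, against 34.1%, and at 3 stages 21 (21.2%), against 11.2%. At 2 stages 16 (16.2%) were called, equal to the background of 16.2%, and at a single stage 32 (32.3%), against 38.5%.

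Single-stage regions were spread unevenly. DN alone held 11 (11.1%), against 21.7% of all regions. When the longer lists were cut to the length of the shortest, these became 5 of 89 (5.62%), against 11.1%. DP alone held 5 (5.05%), against 5.17%. SP4 alone held 10 (10.1%), against 7.39%, and SP8 alone 6 (6.06%), against 4.21%. Most of these SP8 regions lay in a single run within 1613 bp. The pattern DN, SP4 and SP8 without DP held 9 regions (9.09%), against 4.05%, and SP4 with SP8 held 6 (6.06%), against 3.82%. The other patterns with 3 stages held 4 regions each (4.04%), where the background was 3.14% without SP8, 2.24% without SP4 and 1.77% without DN. Among the other pairs, DN with DP held 4 (4.04%, background 5.59%), DN with SP8 2 (2.02%, background 2.11%), DP with SP4 2 (2.02%, background 1.24%), DN with SP4 1 (1.01%, background 2.79%) and DP with SP8 1 (1.01%, background 0.682%). Single-stage regions were low, with a median highest level of 6.25 (6.27 in all regions), while regions called at all stages had a median of 32.6 (33.8).

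**Figure D2:**
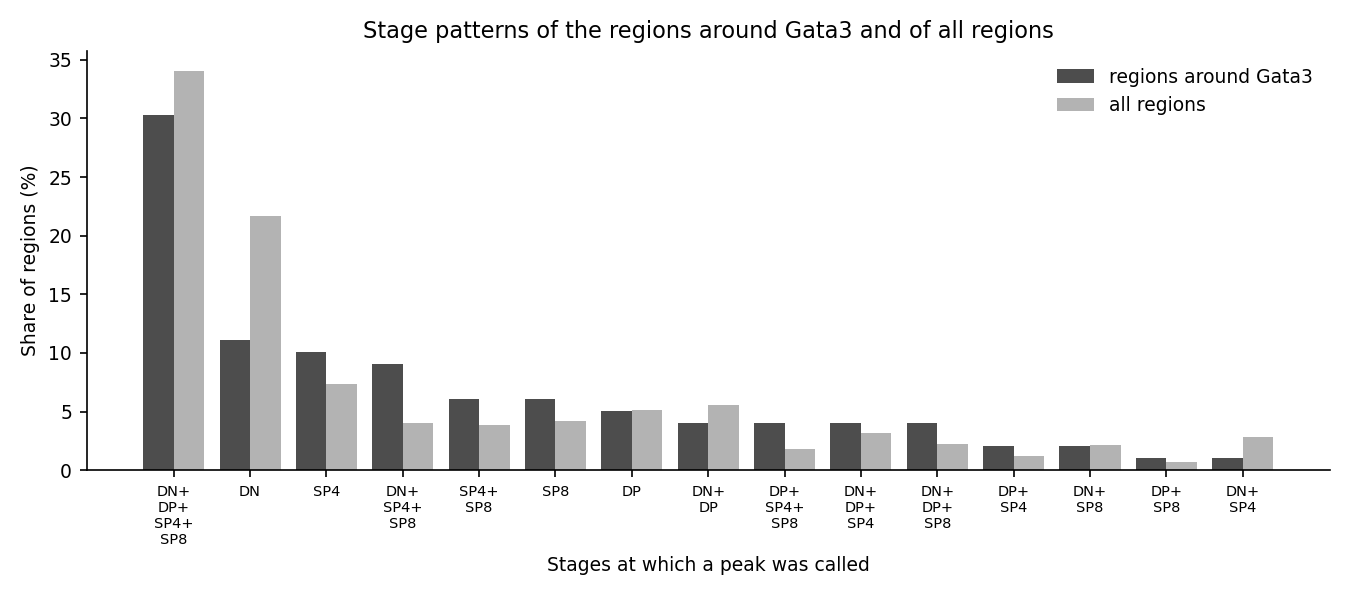
Share of regions (%) with each combination of stages at which a peak was called, for the 99 regions around *Gata3* (dark bars) and all 185978 regions (light bars). The DN bar is 11.1% around *Gata3* and 21.7% in the genome, and with lists of equal length both shares are lower (5.62% and 11.1%).

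Among the 30 regions called at all stages, the level was highest at SP4 in 13 (43.3%), where 24.6% of such regions in the genome were. It was highest at DN in 7 (23.3%, background 28.8%), at DP in 4 (13.3%, background 17.3%) and at SP8 in 6 (20%, background 29.4%). The summits of the 4 stages lay within 50 bp of each other in 19 of the 30 (63.3%), against 56.3% in the genome.

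Regions fell into 4 parts. The desert beyond TCE1, 93 kb, held 14 regions (1.51 per 10 kb), of which 8 (57.1%) were called at all stages. The desert between TCE1 and the gene, 260 kb, held 52 (2.0 per 10 kb), and 10 of those (19.2%) were called at all stages. The gene held 19 (5.77 per 10 kb), with 8 (42.1%) called at all stages. The stretch upstream held 14 (2.33 per 10 kb), with 4 (28.6%). The genome average was 0.755 per 10 kb, and 34.1% of all regions were called at all stages. The intervening desert held 52 of the 99 regions. It contained 8 of the 10 regions found at SP4 alone and 5 of the 6 found at SP8 alone. Of the 11 found at DN alone, it contained 4. Most of its regions found at SP8 alone lay in a single run of low peaks within 1613 bp.

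Within the gene the peaks were high and close together, and the caller's local background rose with them. Its median at the gene's regions was 16.8 (DN), 19.3 (DP), 25.4 (SP4) and 26.7 (SP8) read ends, against 5.32, 4.79, 5.42 and 4.43 in the intervening desert. Fold enrichment there was accordingly low for high summits, with a median highest percentile of 19.1 in the list, against 56.0 by q-value. The higher background also raised the number of read ends needed for a call.

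The peak over the main start (9878345 to 9878762, over the 5' UTR and *Gm13256*) had 250 (DN), 238 (DP), 235 (SP4) and 231 (SP8) read ends. The levels, 71.2, 72.7, 73.0 and 64.5, were alike at all stages, and the SP4 to DN ratio was 1.02 (95% interval 0.854 to 1.23). The region 196.8 kb downstream (9681582 to 9682232) was also of similar height, with 167, 197, 185 and 202 read ends at DN, DP, SP4 and SP8. Its SP8 summit (9682070) lay apart from those of the other stages (9681791 to 9681842), so SP8 was read at another point. Its levels ran from 47.6 to 60.2.

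Just upstream of the main start, within a *Gata3* intron (9879322 to 9879940), the summit held 172 (DN), 254 (DP), 262 (SP4) and 341 (SP8) read ends. DN was the lowest and SP8 the highest, and the SP8 to DN ratio of levels was 1.94 (1.61 to 2.35). Its window, printed above, contains 3 SP/KLF matches. The region 10.8 kb upstream (9889068 to 9889752), in an exon of *9230102O04Rik* near the upstream *Gata3* starts, had 250, 256, 313 and 276 read ends. SP4 stood above DN there by 1.36 (1.15 to 1.62).

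The start at 9890034, the most upstream one, lay in a region with no DN peak and 69, 46 and 49 read ends at the 3 later stages. At the neighbouring DN peak's background, up to 23 read ends would have gone uncalled, a level of 6.55 against 21.1 at DP. The start at 9887784 carried a low peak at each stage, with 47, 55, 52 and 58 read ends. Both starts stood lower than the main one at every stage at which they were called.

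The largest stage difference within the gene was in an intron 10.9 kb downstream of the main start (9867474 to 9867909). It had 55 (DN), 82 (DP), 262 (SP4) and 152 (SP8) read ends, or levels of 15.7, 25.0, 81.4 and 42.4. The order was DN, DP, SP8, SP4. SP4 exceeded DN by 5.19 (3.87 to 7.08), DP by 3.25 (2.53 to 4.22) and SP8 by 1.92 (1.56 to 2.36). A peak of 67 read ends beside it, 11.3 kb downstream, was called at SP4 alone, where summits of up to 22 at DN, 25 at DP and 30 at SP8 would have gone uncalled.

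Other intronic sites also stood higher in mature cells. The region 2.4 kb downstream had 61 read ends at DN, no peak at DP, and 132 at SP4 and 142 at SP8, and its SP4 to DN ratio was 2.36 (1.73 to 3.25). At DP up to 48 read ends there would have gone uncalled. The region 7.2 kb downstream rose less steeply, with 146, 186, 230 and 237. At 6.6 kb SP8 stood out, with 137 read ends against 63 at DN, 75 at DP and 68 at SP4. At 3.4 kb upstream, over an exon of *4930412O13Rik*, the values were 74, 92, 168 and 133. The peak 1.8 kb downstream was called at SP8 alone (90), where summits of up to 44 at DN, 48 at DP and 53 at SP4 would have gone uncalled.

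At 6.4 kb downstream DP had 71 read ends and DN 44, with no peak at SP4 or SP8, where up to 43 and 44 would have gone uncalled. DP thus stood above the limits of the mature stages and DN did not clearly do so. At 0.5 kb downstream DN had 68, DP 98 and SP4 81, and up to 55 would have gone uncalled at SP8. At 5.8 kb DP had 44 and SP8 60, and the limits were 29 at DN and 43 at SP4. Peaks called at DN alone lay 7.6 kb downstream (36 read ends) and 5.0 and 5.2 kb upstream (55 and 54), but up to 41 at SP4 and SP8 would have gone uncalled at the first, and 45 at SP4 and 49 at SP8 at the others. Likewise, the DP peak nearest the 3' end (9862422 to 9862634) held 18, where up to 22 at DN, 32 at SP4 and 30 at SP8 would have been missed. No stage difference can be read at these 4 sites.

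**Figure D3:**
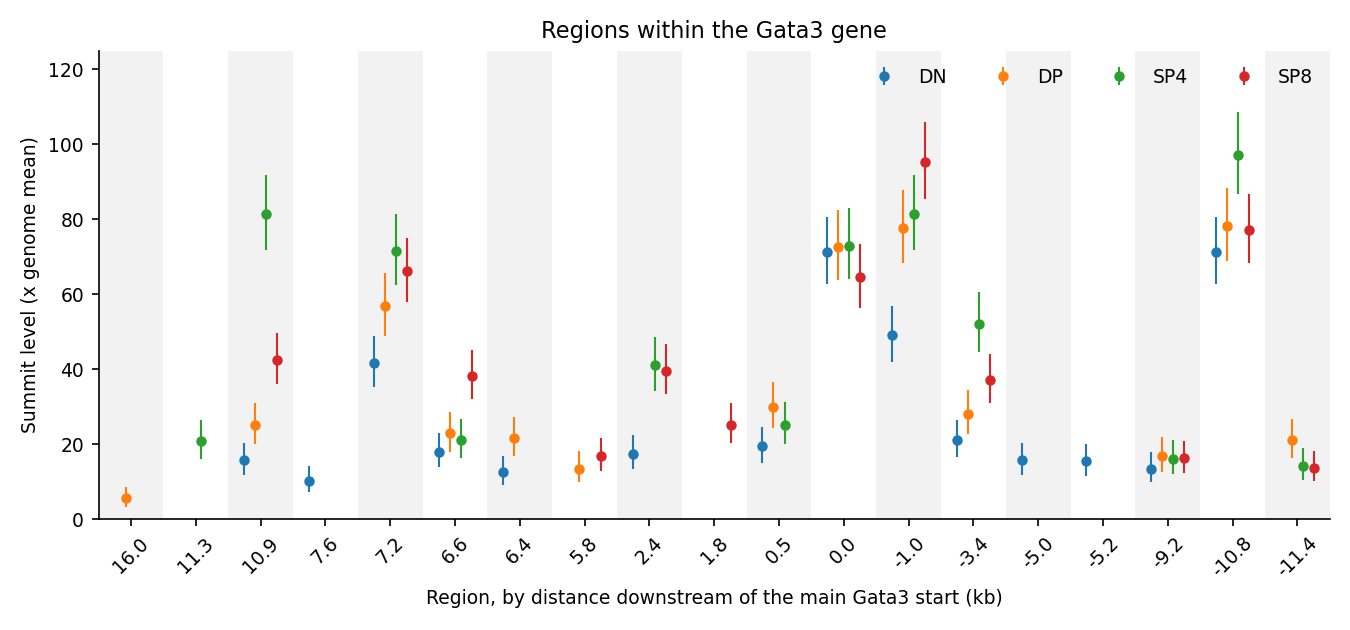
Summit level (multiples of the genome average, 95% Poisson interval) of the 19 regions within *Gata3*, ordered by distance from the main start in kb, with 1 colour per stage and no point where no peak was called. The main start (0.0) is at nearly the same level at every stage, and the region at 10.9 kb is highest at SP4.

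The stages were then compared by level, in regions called at both, after removing the median ratio of all such regions (−0.15 on the log2 scale for DP over DN, and 0.12 and 0.14 for SP4 and SP8 over DP). A difference of 2-fold after this shift was counted. The ratios and intervals quoted for single regions are ratios of levels without the shift. The comparisons share lists, so they are not independent of each other.

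From DN to DP, 7 of 42 regions were lower (16.7%), against 13.3% of all regions, and 1 was higher (2.38%), against 5.9%. The losses included the sites 135.4 kb and 76.8 kb downstream. The former (9742971 to 9743504) had 78 read ends at DN, 14 at DP, 15 at SP4 and no SP8 peak. The latter (9801353 to 9801941) had 219 (DN), 64 (DP), 70 (SP4) and 94 (SP8) read ends. DN exceeded DP there by 3.19 (2.41 to 4.29). The SP4 and SP8 summits of this region (9801556 and 9801553) lay apart from those of DN and DP (9801767 and 9801743). In summit height, DN stood apart from all later stages in both regions. The single gain, 290.9 kb downstream, went from 44 at DN to 81 at DP and was 38 at SP4 and 27 at SP8. Its ratio of levels was 1.97, so it passed 2-fold only through the median shift, and 0 regions were higher without it.

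Other DN sites lost height at the later stages. The region 82.4 kb downstream (9796026 to 9796350) had 188 (DN), 84 (DP), 29 (SP4) and 78 (SP8) read ends. DN exceeded SP4 by 5.95 (4.01 to 9.12), and SP8 exceeded SP4 by 2.42 (1.56 to 3.84), so SP4 was the lowest stage. The region 313.8 kb downstream (9564411 to 9565051) had 191, 97, 63 and 71, with DN above SP4 by 2.78 (2.08 to 3.76). Its SP4 summit (9564720) lay apart from that of DN (9564850). At 270.7 kb, the nearest region to TCE1 on the gene side, DN had 76 read ends, DP 23, SP8 59 and SP4 no peak, where up to 9 would have gone uncalled. The region 50.8 kb downstream was called at DN (75) and DP (29) and at neither SP4 nor SP8.

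From DP to SP4, 6 of 40 regions were higher (15%), against 10.8%, and 2 were lower (5%), against 10.1%. From DP to SP8, 7 of 39 were higher (17.9%), against 9.65%, and 1 was lower (2.56%), against 11.5%. Against DN, SP4 was higher in 9 of 44 regions (20.5%, background 9.74%) and lower in 6 (13.6%, background 15.6%). SP8 was higher than DN in 8 of 45 (17.8%, background 8.61%) and lower in 4 (8.89%, background 16.9%). In each of these comparisons the share of higher regions was above the background and the share of lower ones below it.

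The counted gains were spread along the locus. A run of 10 regions spanning 20245 bp, from 201.5 to 181.2 kb downstream, with gaps of at most 5 kb, held 1 of the 6 from DP to SP4, 1 of the 7 from DP to SP8, 2 of the 9 from DN to SP4 and 2 of the 8 from DN to SP8. These counts leave out sites with no peak at the earlier stage, of which the run also held several. All 10 were called at SP4, 9 at SP8, 6 at DN and 5 at DP. At 186.9 kb (9691554 to 9691808) there were 21 (DN), 19 (DP), 187 (SP4) and 119 (SP8) read ends. SP4 exceeded DP by 10.0 (6.23 to 17.0) and DN by 9.71 (6.17 to 16.1). DN and DP did not differ beyond counting error there, with a ratio of 0.969 (0.493 to 1.89).

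Beside it, the regions at 186.5 kb (9692003 to 9692231) and 184.6 kb (9693898 to 9694134) had no peak at DN or DP. The first had 152 read ends at SP4 and 54 at SP8, and the other 186 and 48. At DN and DP up to 12 read ends would have gone uncalled at either site, which is a level of 3.42 at DN against 57.8 at SP4 in the latter. SP4 exceeded SP8 by 3.13 (2.28 to 4.36) and 4.31 (3.12 to 6.05). At 201.3 kb (9677121 to 9677522) SP4 had 166 read ends, SP8 121 and DN 25, and DP had no peak. The window at this last site is masked as repeat over 100% of its length, and 6 of 99 windows (6.06%) were masked over more than 50%, against 6.69% of all regions.

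**Figure D4:**
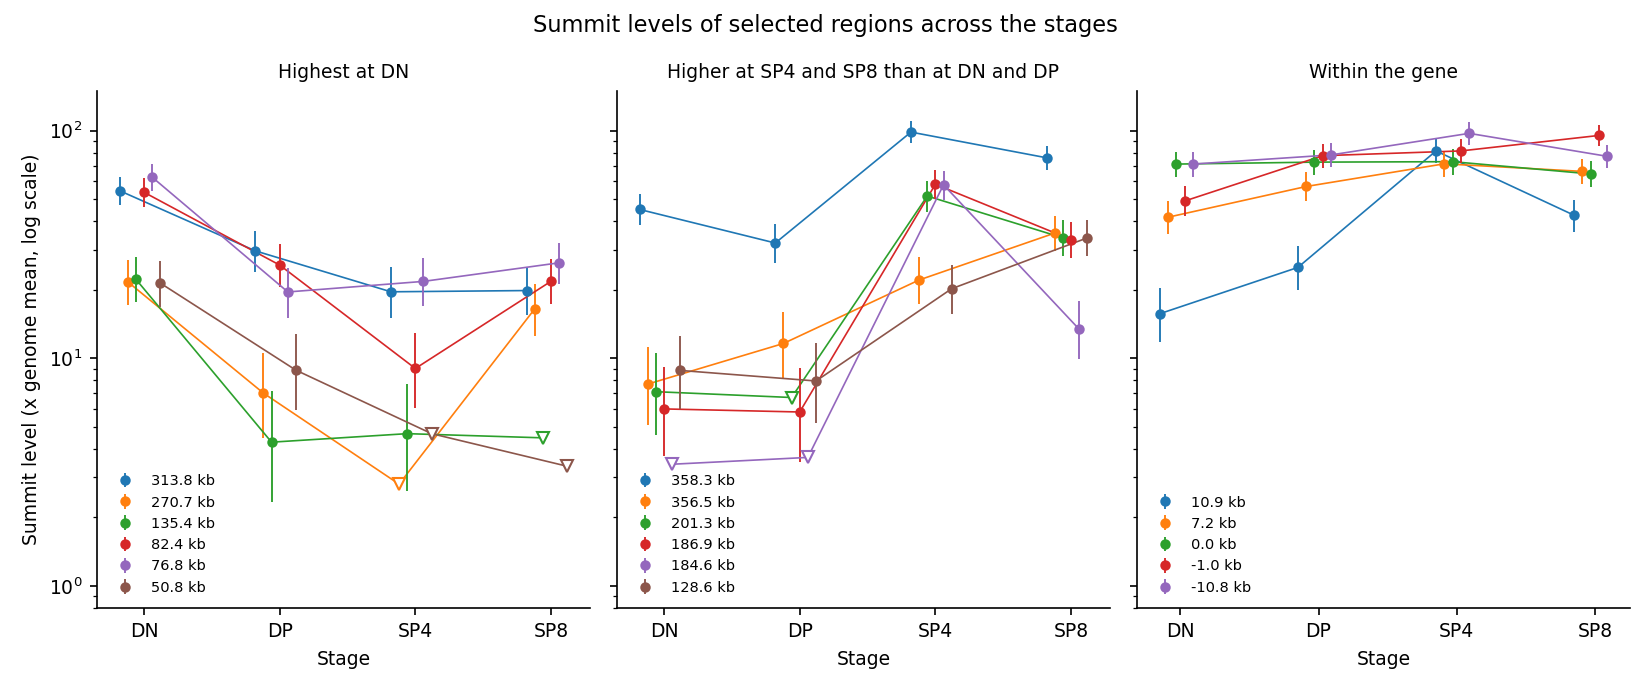
Summit level (multiples of the genome average, log scale) of selected regions at the 4 stages, with 95% Poisson intervals. Open triangles give the estimated highest level that would have gone uncalled. The left panel shows sites highest at DN, the middle panel sites higher at SP4 and SP8 than at DN and DP, and the right panel sites within the gene, with each line a region labelled by distance downstream (negative: upstream).

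Far downstream, beyond TCE1, the region 358.3 kb away (9519864 to 9520452) was the highest of the desert at SP4 and SP8, though not at DN or DP. It had 158 (DN), 105 (DP), 317 (SP4) and 272 (SP8) read ends, with SP4 above DP by 3.07 (2.46 to 3.87) and SP8 above DN by 1.69. Its level at SP4, 98.5, was the highest of any peak among the members at that stage. The window holds 2 RUNX matches. Its neighbour at 356.5 kb had 27, 38, 71 and 127 and was highest at SP8. The region at 285.8 kb, beside TCE1 and in an intron of *Gm13218* by GENCODE, had 138 at DP, 206 at SP4 and 136 at SP8. RefSeq places the 5' end of this minus strand gene at 9592938, within the region. No peak was called there at DN, where the nearest peak's background of 43.1 read ends would have left up to 64 uncalled.

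SP8 and SP4 were close to each other at most sites. Of 49 regions called at both, SP8 was higher in 3 (6.12%), against 4.75%, and lower in 5 (10.2%), against 6.99%. Besides the sites at 186.5 and 184.6 kb, SP4 led at 107.7 kb (59 against 28 read ends) and in an intron of *Taf3* 47.7 kb upstream (9926171 to 9926407). The *Taf3* site had 35 (DN), 33 (DP), 101 (SP4) and 39 (SP8) read ends. SP4 stood apart from every other stage, by 3.11 (2.08 to 4.76) over DP and 2.88 (1.97 to 4.28) over SP8.

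SP8 led in other places. At 130.1 kb there were 19 read ends at DN, none called at DP, 19 at SP4 and 72 at SP8, a ratio of 3.41 (2.03 to 5.98) over SP4. At 194.7 kb the SP8 peak had 140, against 58 at SP4 and 67 at DN. At 128.6 kb, SP4 and SP8 both exceeded the earlier stages, with 31, 26, 65 and 121. A run of 5 low regions within 1613 bp, 245.5 to 243.9 kb downstream, was called throughout at SP8 (17 to 44 read ends), while DN and DP had 1 region each and SP4 none.

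The upstream flank was low by comparison with the gene. The 14 regions there had a median highest level of 8.83, against 25.1 in the gene. At the start of *Gm13262*, 27.8 kb upstream, the stages had 37, 34, 41 and 31 read ends. The region 56.9 kb upstream was called at DN (42) and DP (16) alone.

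Sequence at the summits showed modest departures from the genome. The median G and C content was 48.5% in 200 bp windows, against 51% in all regions, and 53% within the gene. ETS matches were found in 47 windows (47.5%), against 40.1%, and RUNX in 26 (26.3%), against 25.2%. E-box matches were found in 27 (27.3%), a share below the 37.04% of all regions. GATA matches were found in 10 (10.1%, background 8.07%), AP-1 in 10 (10.1%, background 7.17%), RBPJ in 7 (7.07%, background 4.65%) and TCF7/LEF1 in 5 (5.05%, background 4.15%). SP/KLF matches were found in 8 (8.08%, background 10.4%), and the CTCF consensus in 0, against 3.03%. In windows of 100 bp, 6 of the 9 counts fell by more than 1.5 times, to 6 for GATA (6.06%, background 3.38%), 17 for the E-box (17.2%, background 24.6%), 5 for AP-1 (5.05%, background 3.88%), 4 for SP/KLF (4.04%, background 5.17%), 3 for RBPJ (3.03%, background 2.16%) and 1 for TCF7/LEF1 (1.01%, background 1.86%). TCF7/LEF1 thus moved from above its background to below it. Members share the locus, and these shares were not tested.

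Windows of the same shape at other T cell genes serve as a yardstick. *Bcl11b*, which encodes a factor of T lineage commitment, had 151 regions, 54 with a peak in every list and 40 with a peak in 1 list. *Tcf7*, which encodes TCF1, had 147, with 64 and 43. *Myc* had 70, with 21 and 24, and 53 of its regions (75.7%) were called at SP4, against 36 (51.4%) at DN. Around *Gata3*, SP4 (66, 66.7%) and DN (65, 65.7%) were nearly equal. Of all regions, 58.3% were called at SP4, 53% at SP8 and 75.7% at DN. At *Bcl11b* the shares were 69.5% at DN, 61.6% at SP4 and 66.2% at SP8, and at *Tcf7* 72.8%, 63.9% and 62.6%. At *Myc* 64.3% were called at SP8. Each of these windows, like that of *Gata3*, was thus below all regions at DN and above them at SP4 and SP8. DN alone held 14 of 151 regions at *Bcl11b*, 13 of 147 at *Tcf7* and 5 of 70 at *Myc*. These departures were not particular to *Gata3*.

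The labels of the lists were checked at marker genes. Of 12 T lineage genes, 10, 10, 12 and 11 had a peak over a start at the 4 stages in order, with summed levels of 834, 981, 794 and 1054. *Zbtb7b* had one at SP4 alone (level 67.7), *Ptcra* fell from 99.5 at DN to 4.19 at SP8, and *Cd8a* had 101 at DP, 13.4 at SP4 and 89.9 at SP8. Other markers did not follow the sorted stages. *Cd4* ran from 27.4 to 31.4 at all 4, *Il2ra*, a gene of immature DN cells, was 33.1 at DN, 40.7 at SP4 and 47.7 at SP8, and *Cd8b1* was 46.2 at DN and 57.8 at SP4. Of 11 genes of other cells, 5, 3, 2 and 3 had such a peak, with summed levels of 225, 179, 185 and 188. *Pax5* (60.7) and *Lyz2* (22.8) had one at DN alone, *Pecam1* (80.9 to 141) and *Itgam* (34.5 to 61.7) had one at every stage, and *Epcam* had one at all but SP4, while *Cd79a*, *Csf1r*, *Klf1*, *Hbb-bt*, *Cdh5* and *Foxn1* had none at any stage. The part of other cells in the DN values was not tested.

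The window's ends are set by position. The last members inside the far end were the peaks at 358.3 kb, and the nearest peaks outside it held 40 (DN), 27 (DP), 40 (SP4) and 215 (SP8) read ends. At the near end the last peaks inside held 21, 13, 16 and 17, and the nearest outside 26, 26, 21 and 15.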

How the data were processed

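ATAC-seq libraries of DN, DP, SP4 and SP8 thymocytes (4 mice each) were aligned by the authors to mm10 with BWA, stripped of duplicates with Picard, filtered at mapping quality of at least 30, down-sampled to a common depth, pooled by stage, and given to MACS2 (shift of 50 bp towards the 5' side, extension of 100 bp, 5% FDR). The deposited lists give peak coordinates, summits and a score by the caller. The deposited fold enrichment is a ratio over local background, and the deposited −log10 p-value and −log10 q-value are the caller's. Stages were taken from the peak names. Library depth is not given in the lists.

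Peaks sharing 1 bp or more were merged. Read ends were recovered from fold enrichment and p-value to within 0.01 of −log10 p (all but 8 of 476734 peaks), a measure chosen after seeing the data, as were the median shift and the limits for uncalled stages, which use the nearest peak within 5 kb. Intervals are exact Poisson or conditional binomial at 95%. Motifs were searched in 200 bp around summits, with 100 bp as an alternative. Sequence and genes came from GRCm38, GENCODE M21 and RefSeq. Scripts used Python 3.11.15, pandas 2.3.3 and scipy 1.17.1 and were tested on simulated data, where 20000 of 20000 counts were recovered. Some genes of the marker list are not reported here. Members and gene lists were chosen with earlier results of these data known. Named regions include those in the gene, the 5 highest by fold enrichment at each stage, the 3 highest found at a single stage, those called at all stages but 1, and those beside TCE1 or a window end. Other named regions were chosen after their values were seen.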

Additional observations from a re-analysis of the deposited data

How the results depend on the processing

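Peak counts per stage, covered sequence, merged regions and regions called at all stages or at a single stage moved by less than 1.5 times under stricter q-values, lists of equal length, summit membership and stricter matching between stages. The number of regions called at DN alone, 11, became 5 with equal numbers of peaks from each list (104411), an alternative that removes the lowest peaks of the longer lists. Summit windows of 100 bp in place of 200 bp lowered 6 of the 9 motif counts by more than 1.5 times. Without the median shift, an alternative chosen after seeing the data, the number of regions 2-fold higher at DP than at DN went from 1 to 0, and the other 11 counts of 2-fold differences moved by less than 1.5 times. Ranks by q-value differed from those by fold enrichment in most named peaks. No paired analysis was possible because peaks were called on the pooled reads of the 4 mice of each stage, although the labels give the same mice at each stage. Leaving out a mouse could not be run for the same reason. Low summits carry wide counting intervals, and a missing call does not show closed chromatin.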
